A study of Mus musculus with 24 samples.

Results

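The genes described here carry the growth hormone (GH) and insulin-like growth factor 1 (IGF1) axis in liver: the GH receptor gene Ghr, the hormone gene Igf1, the acid-labile subunit gene Igfals, and the 7 IGF binding protein genes Igfbp1 to Igfbp7. They were chosen by gene symbol, and all 10 were found among the 56205 gene rows of the count table. RNA sequencing of poly(A) RNA measured their transcripts in whole livers of 24 C57BL/6J mice, a common inbred laboratory strain. The diets, methionine-choline deficient (MCD) for 12 mice and the matching control for the other 12, were given for 20 weeks, with 6 males and 6 females on each diet. The study's methods give the MCD diet as rich in fat, and no allele or further treatment was described for either group. The age of the animals at the start of this diet was not given in the sources used here, and the labels do not tie a sex to a library, so each diet was analysed as 1 group.

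GH from the pituitary binds GHR on hepatocytes, which activates JAK2 and the transcription factor STAT5B, and STAT5B drives transcription of Igf1 and Igfals. Liver is the main source of circulating IGF1, most of which travels in a ternary complex of IGF1, IGFBP3 and the acid-labile subunit that Igfals encodes. The other binding proteins hold IGF1 in smaller complexes. Igfbp1 is a hepatocyte gene that insulin represses and fasting and cell stress induce, and Igfbp2 is a further hepatocyte gene that rises with fasting. IGFBP7 binds IGF weakly and is made largely by mesenchymal and vascular cells.

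Because Igfbp1 and Igfals are textbook targets of FoxO and STAT5, the sequences upstream of their start sites in RefSeq (GRCm38.p6) are shown, on the plus strand, with matches to the letters searched in capitals. In the Igfbp1 window, chr11:7197537-7197786, the capitals mark CAAAACA, part of the insulin response element to which FoxO factors bind. In the Igfals window, chr17:24877981-24878230, the first capitals mark TGTTTAC, which is the FoxO sequence GTAAACA read on the minus strand, and the second mark TTCCTAGAA, a match to the STAT5 sequence TTCNNNGAA.
Igfbp1: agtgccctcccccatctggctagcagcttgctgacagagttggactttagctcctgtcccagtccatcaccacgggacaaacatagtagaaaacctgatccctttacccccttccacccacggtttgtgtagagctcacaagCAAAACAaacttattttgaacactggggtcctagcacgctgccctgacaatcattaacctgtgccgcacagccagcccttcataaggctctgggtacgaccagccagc
Igfals: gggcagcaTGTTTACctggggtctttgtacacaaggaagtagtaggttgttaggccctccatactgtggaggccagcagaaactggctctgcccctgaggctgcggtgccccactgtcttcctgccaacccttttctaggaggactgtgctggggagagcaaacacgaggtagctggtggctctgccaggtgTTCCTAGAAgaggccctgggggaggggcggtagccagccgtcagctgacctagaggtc
The Igfbp1 match began 108 bases before the start site, and the Igfals matches began 242 and 58 bases before theirs.

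These letters were searched on both strands in 14 windows of 300 bases that RefSeq starts give for the 10 genes (250 bases before and 50 after each start). TTCNNNGAA was found in 2 of the 14, both of Igfals, against 8.30% of 32851 windows of all genes. GTAAACA was found in 1 (3.65% of all windows), CAAAACA in 1 (6.28%) and TGATGNAA, a sequence bound by ATF4 with C/EBP factors, in 0 (3.97%). The Ghr and Igf1 windows held none of the 4. These are matches of letters only.

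Total counts per library were 16793207 to 24915175 in control and 16388650 to 24577848 in MCD. Values are CPM, read counts scaled to library size with TMM factors that correct each library for its composition, and differences are log2 fold changes (log2FC), MCD minus control, from edgeR's quasi-likelihood test over 14109 genes. A change was called where the FDR (Benjamini-Hochberg) did not exceed 0.01 and the log2FC was above 0.5 in size. TMM factors were 0.642 to 0.973 in control and 1.07 to 1.26 in MCD. Scaling by total counts alone moved the median log2FC of all genes from -0.10 to 0.27, a shift of 0.37, and values that turned on it are given under both scalings below. Control replicate 12 had the lowest TMM factor, and control replicate 4 was the highest control library for 4 of the 10 genes. Leaving out both gave the same numbers of changed members, 3 higher and 3 lower. Of the 14330 genes tested in that fit, 3217 were higher and 2562 lower.

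All 10 genes were tested. Igfbp1, Igfbp2 and Igfbp7 rose, Ghr, Igfals and Igfbp3 fell, and Igf1, Igfbp4, Igfbp5 and Igfbp6 did not pass the threshold. Diet changed much of the transcriptome: 38.3% of all tested genes passed, 19.2% higher and 19.1% lower, so 3 of 10 in each direction is to be read against those shares. With total counts alone 3 members were higher and 2 lower, where 32.2% of all tested genes were higher and 6.01% lower. The median log2FC of the 10 was -0.30, beside -0.10 for all genes. In 3 of the 10 (Ghr, Igfbp2 and Igfbp7) no MCD library overlapped a control library, where 14.4% of all tested genes were so separated, 9.50% with MCD above and 4.88% with MCD below.

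**Figure D1:**
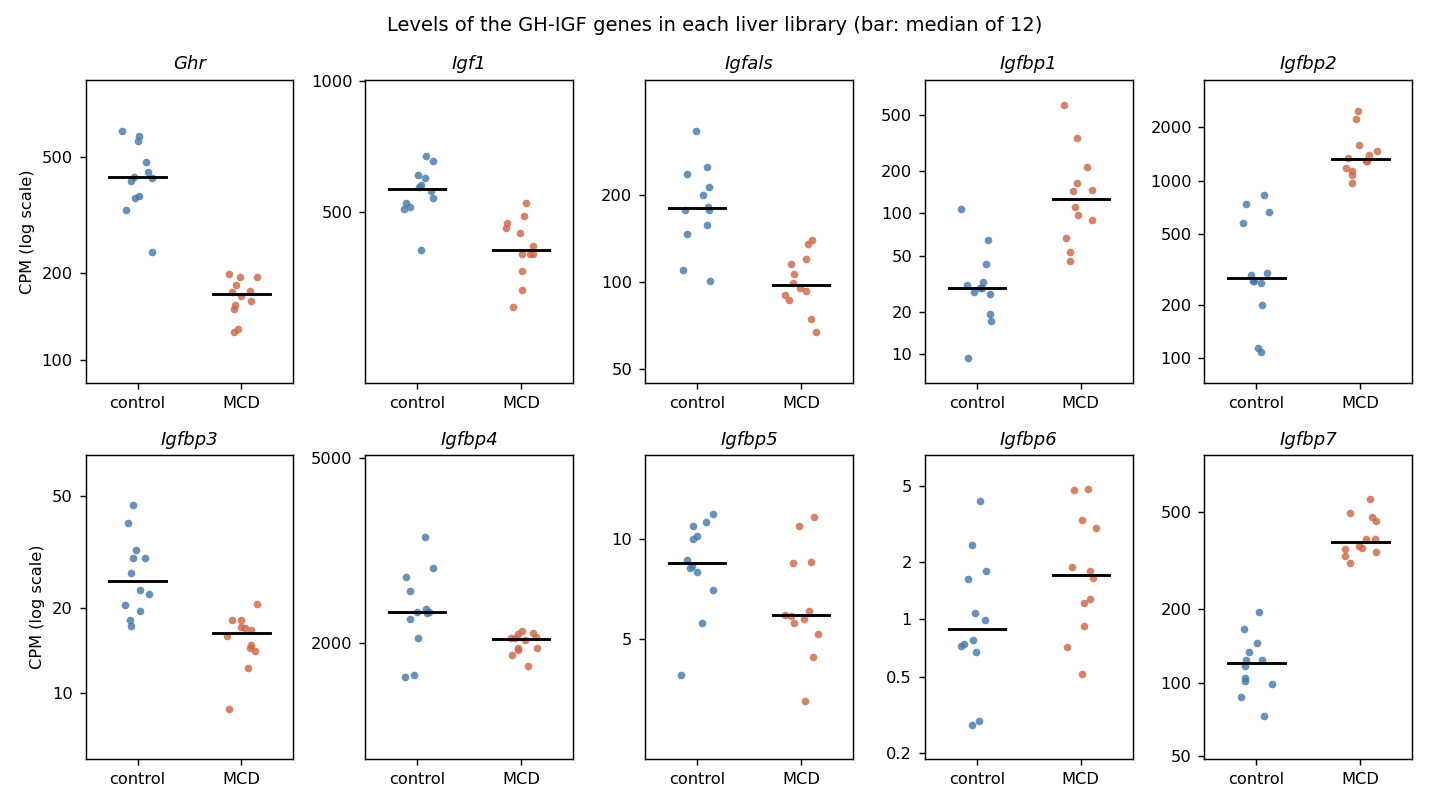
Levels of the 10 genes in CPM (log axis, a separate scale for each gene) in each of 12 control (blue) and 12 MCD (orange) livers; black bars are medians. The diets separate completely for Ghr, Igfbp2 and Igfbp7 and overlap for the other genes, and Igfbp1 in MCD spans 45.8 to 591 CPM.

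Ghr, on chromosome 15 (3317760 to 3583492, minus strand, GRCm38), encodes the receptor through which GH acts, and a shorter transcript of it encodes a soluble GH binding protein that gene counts do not separate. In control livers Ghr ran from 235 CPM through a median of 425 to 612 CPM, with a mean of 437 ± 112 (SD, n = 12). In MCD livers it ran from 125 through 170 to 197 CPM, with a mean of 166 ± 24.1 (SD, n = 12). The highest MCD library lay below the lowest control library. The fold change was 2.63-fold lower in MCD (log2FC -1.39, SE 0.13, 95% CI -1.65 to -1.14, edgeR FDR 5.54e-10). The spread between livers was narrower in MCD, with a coefficient of variation (CV) of 14.5% against 25.6% in control. The 3 genes whose levels followed Ghr most closely across the 24 libraries, after each diet's mean was removed, were Cyp2j5 (r = 0.90), a P450 epoxygenase, Slc22a30 (r = 0.90), an organic anion transporter gene, and Cat (r = 0.89), which encodes catalase. Here and below, likeness was ranked over the 10106 genes that averaged at least 5 CPM, and it is given without a test. Libraries share depth and scaling, and both sexes are mixed in each diet.

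Igf1 (chromosome 10, 87858265 to 87937042, plus strand), whose product carries much of the growth effect of GH, was lower by less than the fold limit. Control libraries ran from 408 through a median of 565 to 671 CPM. MCD libraries ran from 303 through 409 to 524 CPM. All 12 MCD libraries lay below the control median, and 6 of them lay below every control library. The means were 561 ± 71.1 (SD, n = 12) and 418 ± 65.1 CPM (SD, n = 12), which gave a log2FC of -0.43 (SE 0.09, 95% CI -0.61 to -0.24) with an edgeR FDR of 0.000224. With total counts alone this log2FC was -0.07 (edgeR FDR 0.523), while relative to the median of all genes it was -0.33 with TMM and -0.34 with total counts. The Ghr log2FC was -1.03 with total counts alone, so the receptor remained past the threshold. The genes most like Igf1 were Fgf1 (r = 0.77), a fibroblast growth factor, Urad (r = 0.74), an enzyme of uric acid breakdown, and Neb (r = 0.70), which encodes nebulin.

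Igfals (chromosome 17, 24865997 to 24882010, plus strand) encodes the subunit that holds IGF1 and IGFBP3 in the long-lived circulating complex. It ran from 101 through a median of 180 to 333 CPM in control and from 67.0 through 97.4 to 140 CPM in MCD. 7 MCD libraries lay below every control library, and the rest overlapped the control range. The gene was 1.87-fold lower in MCD (log2FC -0.90, SE 0.16, 95% CI -1.23 to -0.57, edgeR FDR 2.15e-05). Its closest genes were Aspdh (r = 0.89), Lcat (r = 0.89), the enzyme that esterifies cholesterol in plasma lipoproteins, and Clcn2 (r = 0.88), a chloride channel gene. Among the promoter windows of the 10 genes, Igfals alone held the STAT5 letters shown above.

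Igfbp3 (chromosome 11, 7206086 to 7213923, minus strand), which encodes the main carrier of IGF1 in plasma and is transcribed in liver mainly outside hepatocytes, ran from 17.3 through 24.9 to 46.3 CPM in control. In MCD it ran from 8.75 through 16.3 to 20.6 CPM. 9 MCD libraries lay below every control library. It was 1.74-fold lower (log2FC -0.80, SE 0.15, 95% CI -1.11 to -0.49, edgeR FDR 5.72e-05), and with total counts alone its log2FC of -0.47 missed the threshold (edgeR FDR 0.026). The genes most like it were Lhx2 (r = 0.82), a transcription factor of stellate cells, Col14a1 (r = 0.79), a collagen gene, and Galnt15 (r = 0.75). Markers of stellate and other mesenchymal cells, of which 10 of 12 rose, moved the other way. Markers of sinusoidal and other endothelial cells fell with TMM, with 7 of 10 lower and 0 higher. Their summed level with TMM was 295 to 452 CPM in control and 182 to 270 CPM in MCD. By total counts these sums are lower in control and higher in MCD, because TMM factors were 0.642 to 0.973 and 1.07 to 1.26. Whether the ranges stay apart on that scaling is not given here. The part of either list in the result was not tested. In bulk liver, fewer cells of a type and less RNA per cell cannot be told apart.

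The 3 genes of the ternary complex and Ghr were also compared with each other within each diet, in 6 relations over 12 libraries each. Two-sided permutation tests of 100000 resamples were used, with Benjamini-Hochberg adjustment over the 6. The permutations treat the 12 livers of a diet as exchangeable, although each diet mixes both sexes. The part of sex in these relations was not tested. Igf1 varied with Igfals among control livers (Pearson r = 0.74, permutation p = 0.00635, adjusted 0.0381; Spearman rho = 0.80, permutation p = 0.00249, adjusted 0.0149). When the 2 control livers most distant from the Igf1 median were dropped, r was 0.64 (permutation p = 0.0453, adjusted 0.176) and rho 0.77 (adjusted permutation p = 0.0704). Among MCD livers r was 0.62 (permutation p = 0.0295, adjusted 0.0749) and rho 0.76 (permutation p = 0.00613, adjusted 0.0184), and after the same step r was 0.61 (adjusted permutation p = 0.176) and rho 0.72 (adjusted permutation p = 0.0704). No call at an adjusted p of 0.05 was therefore left in either diet once 2 livers were dropped. The MCD r was 0.71 without replicate 8 (adjusted permutation p = 0.0437) and 0.71 without replicate 10 (adjusted permutation p = 0.0460). In CPM by total counts the control r was 0.42 (adjusted permutation p = 0.359). Control replicate 12 stood apart in that plot, and without it alone the control r with TMM was 0.90 (adjusted permutation p = 0.00036). Without replicate 4 alone it was 0.74 (adjusted permutation p = 0.0597). With total counts and both left out it was 0.85 (adjusted permutation p = 0.013).

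**Figure D2:**
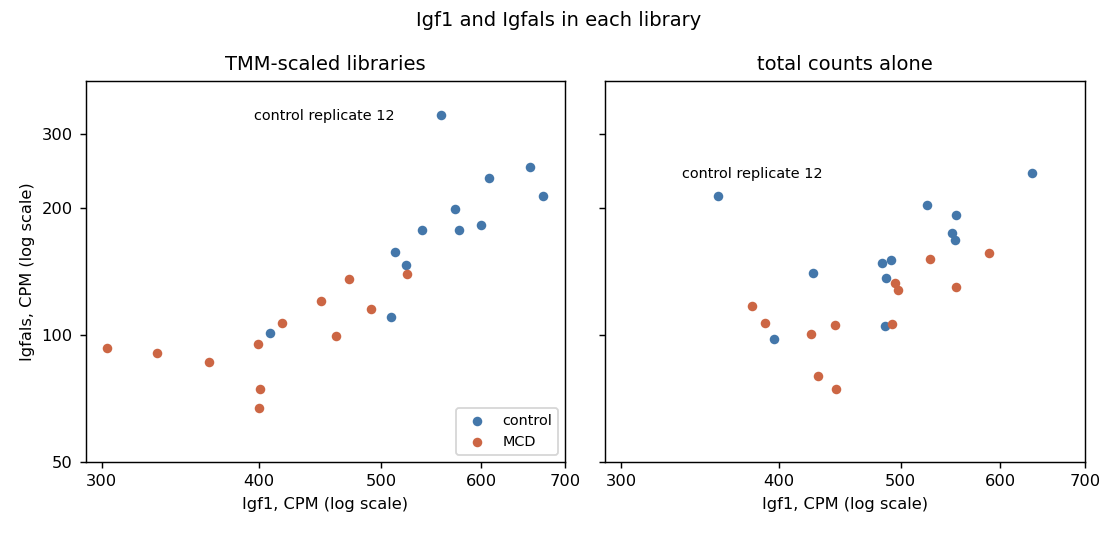
Igf1 (x axis) and Igfals (y axis) in CPM, both on log axes, in 12 control (blue) and 12 MCD (orange) livers, with TMM scaling on the left and total counts alone on the right. Control replicate 12, labelled, lies above the trend of the other control livers in both, and the control r falls from 0.74 on the left to 0.42 on the right.

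Igf1 with Ghr gave r = 0.13 in control (permutation p = 0.680, adjusted 0.714; rho = 0.18, permutation p = 0.573) and r = 0.60 in MCD (permutation p = 0.0374, adjusted 0.0749; rho = 0.58, permutation p = 0.0524), and the MCD value was 0.24 once the 2 most distant livers were dropped. The control value had no settled direction, with r = -0.07 without replicate 10, -0.01 without replicate 4 and -0.55 on total counts without replicates 4 and 12. The MCD value was 0.72 without replicate 6 (adjusted permutation p = 0.0331). Igfbp3 with Igfals gave r = -0.51 in control (permutation p = 0.0907, adjusted 0.136; rho = -0.55) and r = -0.12 in MCD (permutation p = 0.714; rho = -0.27). None of these 4 r values passed an adjusted p of 0.05. Whether any relation differed between the diets was not tested. A high r was not particular to these genes. In control livers r was 0.97 for Igfals with Igfbp4, 0.69 for Igfals with Igfbp2 and 0.63 for Igf1 with Igfbp4. In MCD livers the same pairs gave 0.04, -0.84 and 0.66. These values are given without a test.

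Igfbp1 (chromosome 11, 7197782 to 7202546, plus strand) encodes a binding protein whose plasma level changes within hours of feeding. Control libraries ran from 9.37 through a median of 29.6 to 107 CPM, the highest being replicate 4. MCD libraries ran from 45.8 through 127 to 591 CPM, a 12.9-fold range, the highest being replicate 10, without which the range was 7.48-fold. 7 MCD libraries lay above every control library, and all 12 lay above the control median. The gene was 4.71-fold higher in MCD (log2FC 2.24, SE 0.40, 95% CI 1.41 to 3.06, edgeR FDR 2.66e-05), with a CV of 71.5% in control (48.2% without replicate 4) and 90.1% in MCD (64.0% without replicate 10). Its closest genes were Btg2 (r = 0.82), an antiproliferative early response gene, Tat (r = 0.81), the glucocorticoid-induced tyrosine aminotransferase, and Slc25a25 (r = 0.81), a mitochondrial carrier. Of these Btg2 rose (log2FC 1.88, edgeR FDR 2.01e-07), while Tat had a log2FC of 0.10 (edgeR FDR 0.752) and Slc25a25 one of -0.29 (edgeR FDR 0.153). The feeding state and hour of sampling of each liver are not given in the labels, and their part in the spread was not tested.

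Igfbp2 (chromosome 1, 72824503 to 72852474, plus strand), a hepatocyte binding protein gene, rose in every MCD liver relative to every control liver. It ran from 109 through 285 to 831 CPM in control and from 971 through 1322 to 2468 CPM in MCD. The highest control library, replicate 4, was below the lowest MCD library. The gene was 3.76-fold higher (log2FC 1.91, SE 0.29, 95% CI 1.32 to 2.50, edgeR FDR 2.29e-06). The relative spread was wider in control, with a CV of 64.3% against 31.2% in MCD. The 2 MCD libraries with the most Igfbp2, replicates 9 and 10 (2234 and 2468 CPM), were also the 2 with the most Igfbp1 (342 and 591 CPM). Scarb1 (r = 0.87), the receptor for high-density lipoprotein, Ier2 (r = 0.85), an immediate early gene, and Tspan33 (r = 0.84) were most like Igfbp2.

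Igfbp7 (chromosome 5, 77349240 to 77408041, minus strand) rose in every MCD liver relative to every control liver. It ran from 73.1 through 120 to 194 CPM in control and from 309 through 374 to 566 CPM in MCD, and the diets did not overlap. The gene was 3.28-fold higher (log2FC 1.71, SE 0.14, 95% CI 1.43 to 2.0, edgeR FDR 6.73e-11). The genes most like it were C1qtnf5 (r = 0.92), Pcolce (r = 0.91), which encodes an enhancer of procollagen processing, and Vim (r = 0.90), the mesenchymal intermediate filament vimentin. Markers of stellate and other mesenchymal cells rose in 10 of 12 cases and fell in 1 (Lrat), with a summed level of 239 to 677 CPM in control and 886 to 1549 CPM in MCD. The highest control sum belonged to replicate 4, which also had the most Igfbp7 of the control livers. Other places differed: control replicate 12 was at place 2 for Igfbp7 and place 8 for the sum. Control replicate 11 was at place 4 for Igfbp7 and place 2 for the sum. Portal fibroblast markers rose in 6 of 6 tested, from a summed 8.72 to 47.2 CPM in control to 78.6 to 245 CPM in MCD. The part of these markers in the Igfbp7 result was not tested. 85 exon bases of Igfbp7 overlap Polr2b on the other strand, and whether counting used strand is not stated for these libraries.

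Igfbp4 (chromosome 11, 99041244 to 99054392, plus strand), which encodes a binding protein that restrains IGF action and is cut by the protease PAPPA, had the highest level per kb of exon of the 10 in control. It ran from 1687 through 2334 to 3374 CPM in control and from 1787 through 2036 to 2125 CPM in MCD. The MCD range lay wholly inside the control range, and the CV was 20.0% in control and 5.02% in MCD. The log2FC was -0.26 (SE 0.09, edgeR FDR 0.0188) and turned to 0.12 (edgeR FDR 0.182) with total counts alone, so its sign depended on the scaling. Relative to the median of all genes it was -0.16 with TMM and -0.15 with total counts. Its likeness ranking (Lmbr1l, r = 0.91, Aspdh, r = 0.89, and Os9, r = 0.89) was taken over both diets. Within MCD alone r was -0.38 with Lmbr1l, 0.26 with Aspdh and 0.63 with Os9.

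Igfbp5 (chromosome 1, 72857932 to 72874884, minus strand), a binding protein of mesenchymal cells that adheres to matrix, stayed within overlapping ranges. It ran from 3.89 through 8.46 to 11.9 CPM in control and from 3.25 through 5.88 to 11.6 CPM in MCD. A single MCD library lay below the control range, and the log2FC was -0.35 (SE 0.19, 95% CI -0.74 to 0.04, edgeR FDR 0.105), with a value of 0.01 under total counts alone (edgeR FDR 0.982). Its closest genes were Mrvi1 (r = 0.62), Aebp1 (r = 0.60), a matrix-associated protein gene, and Arhgap4 (r = 0.60).

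Igfbp6 (chromosome 15, 102144362 to 102149511, plus strand), which encodes a carrier that prefers IGF2, had the lowest level per kb of exon of the 10 in control. It ran from 0.279 through 0.885 to 4.16 CPM in control (5 to 55 counts) and from 0.514 through 1.71 to 4.80 CPM in MCD (11 to 132 counts). 10 of 12 MCD libraries lay above the control median, but the ranges overlapped, and the log2FC was 0.75 (SE 0.40, 95% CI -0.07 to 1.57, edgeR FDR 0.105). With total counts alone it was 1.18 (edgeR FDR 0.0101), also short of the threshold. The CV between livers was 84.8% in control (64.0% without replicate 12) and 68.7% in MCD. The genes most like Igfbp6 were Igfbp5 (r = 0.71), Rad9a (r = 0.71), a DNA damage checkpoint gene, and Arpc2 (r = 0.71), an actin nucleation gene.

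**Figure D3:**
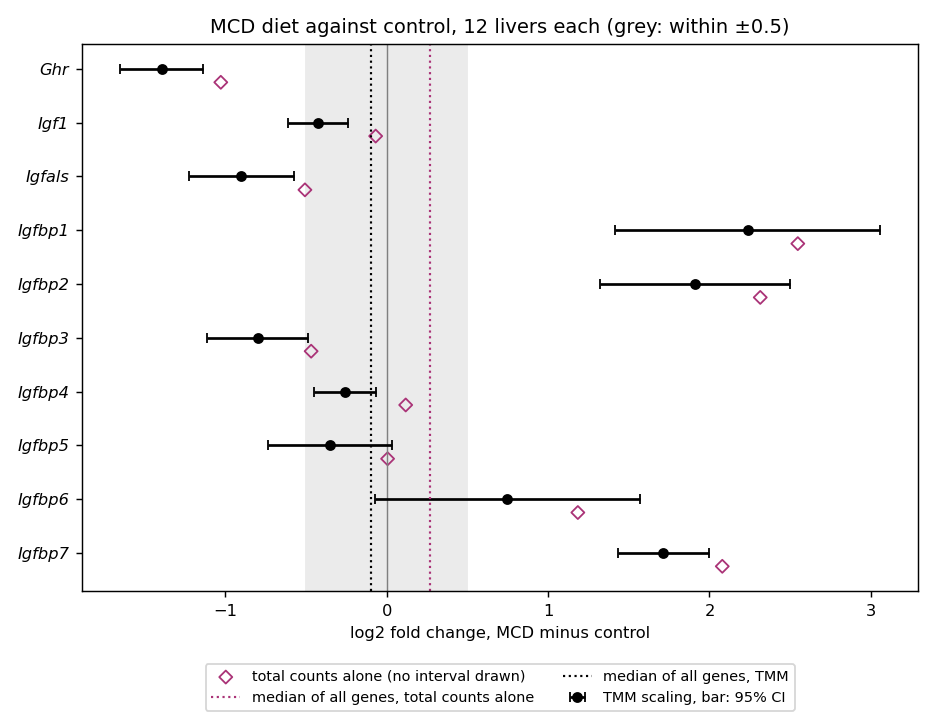
Log2 fold change of each of the 10 genes, MCD minus control (x axis), with its 95% confidence interval from 12 livers per diet; open diamonds give the value with total counts alone and dotted lines the median of all genes under each scaling. Igfbp1, Igfbp2 and Igfbp7 lie right of the grey band of ±0.5, Ghr and Igfals left of it, and Igfbp3 left of it with TMM only. Igfbp6 lies right of it too, with an interval that crosses 0.

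Both pairs of neighbouring members differed in their calls. Igfbp1 and Igfbp3 lie tail to tail on chromosome 11 with 3539 bases between them, and the first rose (log2FC 2.24) while the second fell (log2FC -0.80). Igfbp2 and Igfbp5 lie in the same arrangement on chromosome 1 with 5457 bases between them. There the first rose (log2FC 1.91), and the second did not pass (log2FC -0.35, and 0.01 with total counts alone).

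Levels between genes were compared per kb of merged exon. In control livers the order was Igfbp4 (541 ± 108 CPM per kb, SD, n = 12), Igfbp2 (210 ± 135), Igfbp7 (101 ± 28), Igfals (60.0 ± 20.1), Igf1 (56.7 ± 7.18), Ghr (48.3 ± 12.3), Igfbp1 (23.9 ± 17.1), Igfbp3 (8.69 ± 2.89), Igfbp5 (1.44 ± 0.40) and Igfbp6 (1.17 ± 0.99). The only neighbours in this order whose ranges were separate were Igfbp3 and Igfbp5. Igfals exceeded Igf1 in 5 of 12 control libraries, so their order was not resolved. In MCD livers Igfbp2 led (788 ± 246 CPM per kb, SD, n = 12), above Igfbp4 (453 ± 22.7) in 12 of 12 libraries with separate ranges, followed by Igfbp7 (332 ± 65.3), Igfbp1 (113 ± 102), Igf1 (42.2 ± 6.57), Igfals (32.2 ± 7.09), Ghr (18.4 ± 2.66), Igfbp3 (5.0 ± 0.99), Igfbp6 (1.94 ± 1.33) and Igfbp5 (1.13 ± 0.43). Among MCD neighbours Ghr and Igfbp3 were also separate. With the length of the longest transcript in place of merged exons, Ghr moved from place 6 to place 3 in control, and the lead of Igfbp4 in control and of Igfbp2 in MCD did not change.

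The make-up of binding protein transcripts followed from these levels. Igfbp4 held 62.3% ± 7.64 (SD, n = 12) of the summed level per kb of the 7 in control and 27.6% ± 4.52 in MCD. Igfbp2 held 21.7% ± 8.99 in control and 45.8% ± 4.81 in MCD. Igfbp7 went from 12% ± 4.06 to 20.0% ± 4.38, and Igfbp1 from 2.67% ± 1.47 to 6.08% ± 3.77. The highest Igfbp4 share in MCD, 33.5%, was below the lowest in control, 43.5%. The summed level was 887 ± 239 CPM per kb in control and 1694 ± 361 in MCD, and the ranges met (595 to 1332 and 1331 to 2590). Shares do not depend on the scaling between libraries, but they do depend on the lengths used: with the longest transcripts Igfbp2 held 52.4% in MCD.

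**Figure D4:**
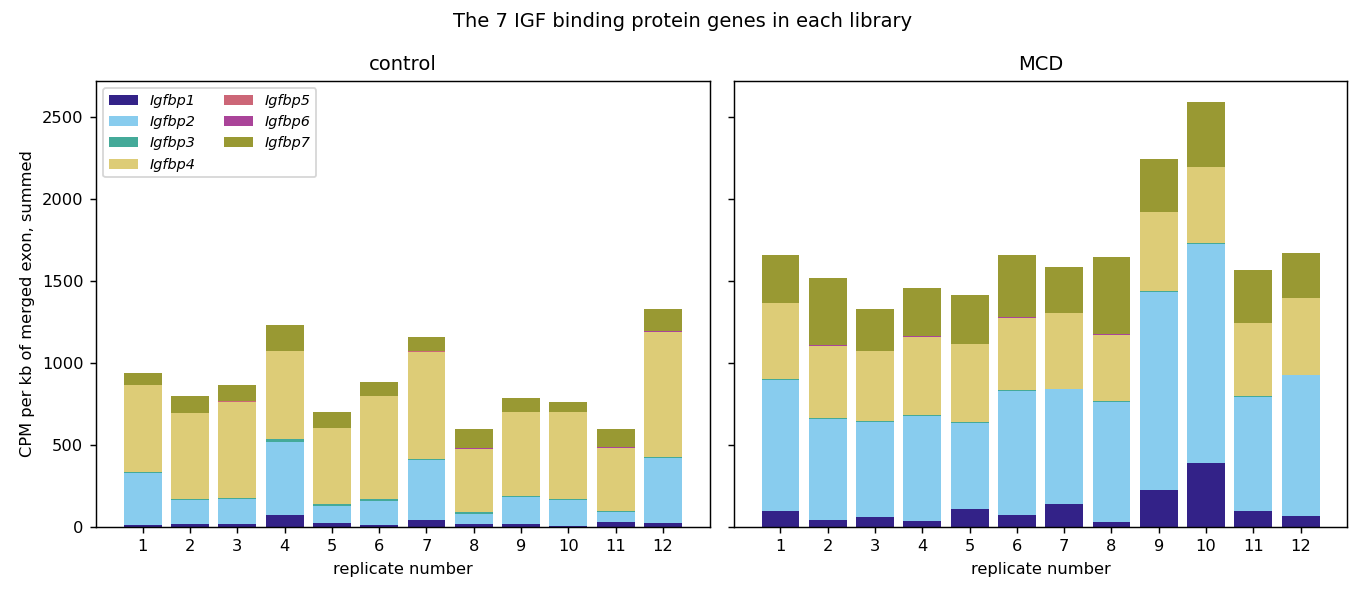
Summed level of the 7 IGF binding protein genes in CPM per kb of merged exon (y axis) in each of 12 control and 12 MCD livers (x axis, replicate number), split by gene. Igfbp4 is the largest segment in control and Igfbp2 in MCD, where it held 45.8% of the sum on average, and the sums of replicates 9 and 10 are the highest.

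Genes around the axis were taken from lists of related genes, which were chosen with earlier results of these data known. Of GH receptor signalling, 16 of 17 genes were tested, 1 rose (Socs1) and 2 fell, with a median log2FC of 0.04 beside -0.10 for all genes. Gh itself had 0 counts in all 24 libraries, where 3 counts would be 0.109 to 0.227 CPM. Prlr, the prolactin receptor, fell (log2FC -1.71, SE 0.50, edgeR FDR 0.00435) and so did Stat5b (log2FC -0.55, SE 0.09, edgeR FDR 7.58e-06), which ran from 37.0 to 81.5 CPM in control and 35.4 to 50.3 CPM in MCD. Both missed the threshold with total counts alone (log2FC -1.39 and -0.21), where 7 genes of the list were higher and 0 lower. Stat5b also missed it with relative log expression factors (log2FC -0.49) and with upper-quartile factors (-0.40). Jak2, the kinase of the receptor, had a log2FC of -0.28 (edgeR FDR 0.000852) that was 0.07 with total counts alone, and Stat5a one of -0.42 (edgeR FDR 0.000426). The feedback inhibitor genes that STAT5 induces did not pass, with a log2FC of 0.54 for Socs2 (SE 0.22, edgeR FDR 0.0363) and 0.00 for Cish (SE 0.35, edgeR FDR 0.997), though Socs2 passed with total counts alone (log2FC 0.89).

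Of the IGF ligand, receptors and docking proteins, 3 of 9 rose, 2 fell and the median log2FC was -0.22. Igf1r, the IGF1 receptor, rose from a median of 3.27 to 5.61 CPM (log2FC 0.72, SE 0.15, edgeR FDR 0.000179). Grb10, an adaptor that restrains insulin and IGF1 receptors, rose (log2FC 1.16, SE 0.15, edgeR FDR 3.04e-07). Igf2, the fetal IGF, rose from a median of 0.285 to 1.0 CPM (log2FC 1.41, SE 0.44, edgeR FDR 0.00691), at levels close to the floor of 3 counts. Irs1, a docking protein of both receptors, fell (log2FC -1.51, SE 0.25, edgeR FDR 1.22e-05), and Insr fell as well.

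Of proteases that cut IGF binding proteins and inhibitors of these proteases, 3 of 7 tested were higher, 2 proteases and the inhibitor gene Stc2, and 3 lower (median log2FC 0.20). Mmp7, matrilysin, rose from a median of 0.448 to 34.8 CPM (log2FC 6.30, SE 0.39, edgeR FDR 1.18e-12). Htra1, a serine protease with an IGFBP domain, rose from 2.84 to 20.7 CPM (log2FC 2.66, SE 0.21, edgeR FDR 4.78e-11). Stc2, whose product inhibits PAPPA, rose from 0.314 to 3.60 CPM (log2FC 3.13, SE 0.29, edgeR FDR 1.06e-09), with every MCD library above every control library. Pappa itself was too low to test, at 0 to 0.558 CPM in control and 0 to 0.894 CPM in MCD. The 3 that fell were Adam9, Plg and F2, the last 2 being plasma proteases of hepatocytes, and all 3 missed the threshold with total counts alone. Plg and F2 also missed it with upper-quartile factors (log2FC -0.43 each). Of other proteins with an IGFBP domain 5 of 8 tested rose and 0 fell (median log2FC 0.91; 6 and 0 with total counts alone), led by Ccn5 (log2FC 4.78, SE 0.43, edgeR FDR 5.38e-10) and Ccn2 (log2FC 2.09, SE 0.27, edgeR FDR 1.68e-07), both matricellular genes.

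The sex-specific pattern of GH secretion sets the liver level of many genes. Of the male-biased list 3 of 14 tested fell and 0 rose (median log2FC -1.55). The leading falls were Mup7 (log2FC -6.23, SE 1.65, edgeR FDR 0.00189) and Mup3 (log2FC -2.64, SE 0.47, edgeR FDR 2.59e-05), both major urinary protein genes. Of the female-biased list 4 of 12 tested fell and 0 rose (median log2FC -1.79), and among genes averaging at least 5 CPM the largest were Cyp17a1, a steroid hydroxylase (log2FC -2.60, SE 0.51, edgeR FDR 8.75e-05), and Cyp3a44 (log2FC -1.64, SE 0.48, edgeR FDR 0.00411). The spread was large: Mup7 ran from 0.453 to 15338 CPM in control. Both sexes are in each diet, and the part of sex in this spread was not tested. Mup and Cyp3a genes have near-identical copies between which reads may be split, so these values are uncertain. With total counts alone 2 male-biased genes were lower and 1, Selenbp2, was higher (log2FC 0.94, edgeR FDR 0.00229), and 2 female-biased genes were lower and 0 higher. Elovl3, Abcd2 and Cyp3a44 were the genes that missed the threshold in that fit.

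In insulin and FoxO genes 4 of 11 fell and 0 rose (median log2FC -0.33), while with total counts alone 2 were lower and 2 higher. Foxo1 and Sesn3 were the genes that missed the threshold in that fit, and Foxo1 also missed it with the other scalings (log2FC -0.45 and -0.36). Srebf1, the lipogenic transcription factor gene that insulin induces, fell (log2FC -1.60, SE 0.20, edgeR FDR 1.45e-07), with every MCD library below every control library. In integrated stress response genes 6 of 10 rose and 0 fell (median log2FC 0.69; 9 and 0 with total counts alone), led by Asns, asparagine synthetase (log2FC 4.06, SE 0.68, edgeR FDR 1.05e-05), and Atf3 (log2FC 3.65, SE 0.23, edgeR FDR 1.93e-12). Over all lists, of 87 genes tested, 18 were higher and 18 lower, to be read against the 19.2% and 19.1% of all tested genes given above. With total counts alone 31 were higher and 8 lower, beside the 32.2% and 6.01% given above.

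**Figure D5:**
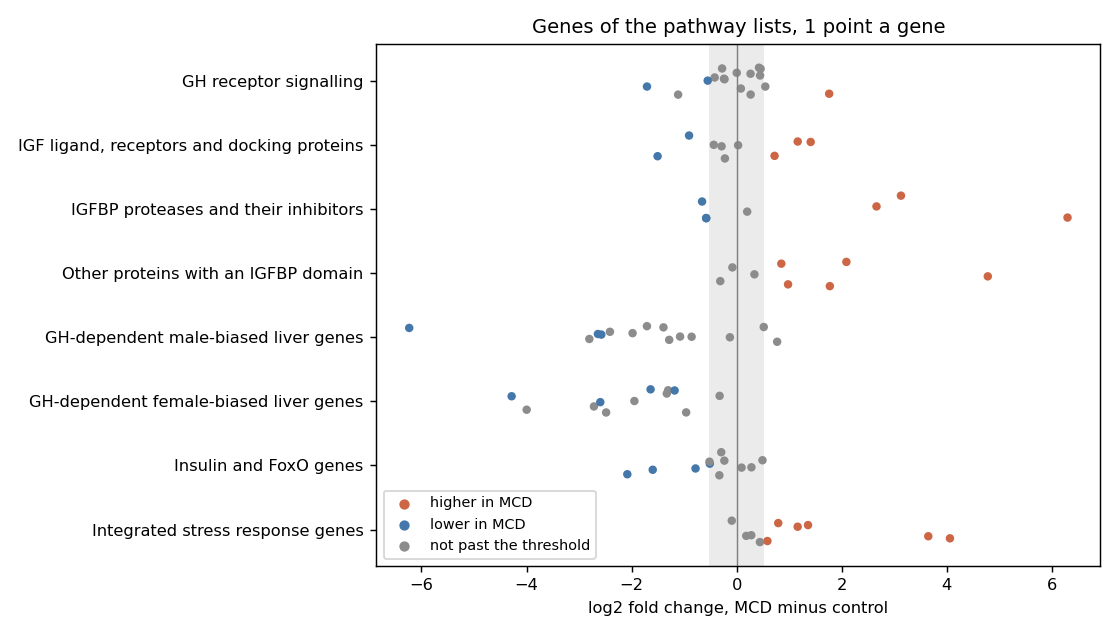
Log2 fold change, MCD minus control (x axis), of each tested gene of the 8 lists (rows), with TMM scaling and with genes past the threshold in orange (higher) or blue (lower) and the others in grey; the grey band marks ±0.5. Points past the threshold lie only on the right for IGFBP domain and stress response genes and only on the left for both GH-dependent lists and the insulin list.

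Hepatocyte markers fell with TMM in 4 of 10 cases (Alb, Apob, Ttr and Ass1) with 0 higher. Their summed level was 86001 to 187990 CPM in control and 64780 to 94220 CPM in MCD, so the liver label held in both diets. All marker sums here are TMM-scaled, and by total counts each is lower in control and higher in MCD. Other cell type markers moved as well. Monocyte-derived macrophage markers rose in 8 of 8 cases, from a summed 21.7 to 86.6 CPM to 642 to 1358 CPM, and cholangiocyte markers in 6 of 7, from 23.3 to 44 CPM to 75.6 to 147 CPM. Lymphocyte markers rose in 4 of 8 (4.30 to 13.2 and 11.3 to 24.6 CPM), proliferation markers in 5 of 5 (3.67 to 14.5 and 19.4 to 32.3 CPM) and mesothelial markers in 2 of 4 tested (1.28 to 7.97 and 5.98 to 16.4 CPM). Kupffer cell markers fell in 4 of 6 (144 to 440 and 85.8 to 311 CPM). No marker tested was at 0 in every library, and the part of any of these shifts in the 10 genes was not tested.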

How the data were processed

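RNA sequencing of poly(A) RNA measured whole livers of 24 mice. The deposited values are raw read counts per Ensembl gene made by the authors, 1 column per library, with no normalization; all 24 columns matched a sample title and 0 were left unused. Of 56205 rows 28652 were 0 in every library. The submitters' processing notes name bcl2fastq, STAR 2.7.3a and mm10; the study's methods name a stranded mRNA library kit, and EQP and PISCES for quantification against a human reference, but for these mouse counts the counting program, annotation release and use of strand are not given in the sources used here. Symbols, lengths, overlaps and coordinates came from GENCODE M21 (GRCm38), which named 51745 rows; the other 4460 held 0.0808% of counts and kept their identifiers. Every pair of libraries within a diet differed by more than sampling noise (smallest dispersion index 11.4, where noise gives 1).

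The members and lists were chosen with earlier results of these data known. In R 4.3.3, genes kept by filterByExpr (14109) were scaled by TMM and fitted with edgeR 4.0.16 (glmQLFit, glmQLFTest) on diet alone. The limits, FDR of 0.01 and log2FC of 0.5, are those the study used for human liver, where it also fitted sex, which is not labelled here. SEs are the absolute log2FC over the root of F, intervals are at 95%, and the biological coefficient of variation was 26.8%. Log2 CPM used a prior count of 2. Each list's 2 largest changes at a mean of at least 5 CPM, 10 fixed genes, every member and 3 genes most like each member are named; Socs1, Insr, Lrat, Selenbp2 and the other genes named beside a small count were chosen after their values were seen. 1 gene that this rule names is not reported here. P-values measure the spread between these libraries. The floor of 3 counts and counts themselves cover counting error only.

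On simulated counts of 14109 genes for this comparison the fit recovered 76 of 87 genes changed by a log2FC of 1 and 108 of 113 changed by 2. In that simulation 0 unchanged genes were called. Only 200 genes were changed there, whereas 38.3% of tested genes passed in the data. The simulation therefore cannot show how the fit behaves when so many genes shift. The alternatives tried were other tools (DESeq2 1.42.0 and limma-voom in limma 3.58.1), other scalings (relative log expression, upper-quartile, total counts alone), other filters (none, or 10 counts or more in each library), other models (the replicate number as a block, or a score of sex-linked expression as covariate), other limits (FDR of 0.05 with no fold limit, or log2FC of 1) and each library left out; leaving out control replicates 4 and 12 together, also with total counts, and giving spreads without the highest library were added after seeing the data. Relations, tables and figures used Python 3.11.15 with numpy 2.4.6, scipy 1.17.1, pandas 2.3.3 and matplotlib 3.10.9.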

Additional observations from a re-analysis of the deposited data

How the results depend on the processing

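Of 119 member values under alternatives other than leaving out 1 library, 112 kept their direction and side of the threshold, as did all 240 values with 1 library left out. The count of members higher was 3 under every alternative. The 3 lower became 5 with an FDR of 0.05 without a fold limit, which added Igf1 (log2FC -0.43) and Igfbp4 (-0.26). They became 1 with a log2 limit of 1, which left Ghr. How many of all tested genes passed these other limits is not given here. These member counts therefore have no share beside them. With total counts alone Igfbp4 turned to 0.12 and Igfbp5 to 0.00599 and Igfbp3 lost its call, a shift that by construction follows the TMM factors. The pathway genes changed from 18 higher and 18 lower to 31 and 8. With total counts the r of Igf1 with Igfals in control was 0.42. With control replicates 4 and 12 left out, the r of Igf1 with Ghr in control was -0.0101 with TMM and -0.55 with total counts, where it had been 0.13.

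With 1 library left out, the r of Igf1 with Ghr ranged from -0.0746 to 0.36 in control and from 0.40 to 0.72 in MCD, and the r of Igf1 with Igfals from 0.60 to 0.90 in control and from 0.51 to 0.71 in MCD. Member log2FCs ranged most for Igfbp1, from 1.92 to 2.51.

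A fit with the replicate number as a block gave 3 members higher and 3 lower and changed no member's call. Of the 14109 genes tested in that fit, 2781 were higher and 2430 lower. The numbers were not shown to pair the libraries: 8 of 12 same-numbered pairs correlated above 0.1 (-0.28 to 0.35, median 0.23, against -0.06 for other pairs), and 2 control libraries correlated best with their own number. A sex-linked score as covariate gave 3 higher and 3 lower too, where 2778 of 14109 tested genes were higher and 2707 lower. Igfbp6 had no value with at least 10 counts in every sample. Pappa was too low to be tested.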
